A study of Mus musculus with 13 samples.

Results

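A set of 10 genes that astrocytes are known to raise when they become reactive were followed in the cortex of mice of an amyloid-depositing line, with and without the gene for apolipoprotein E. They were picked by name from the 20971 genes of the table, and 10 of 10 names were found: the intermediate filament genes Gfap, Vim and Nes, the secreted inhibitor genes Serpina3n and Timp1, the surface protein genes Cd44, Osmr and Aqp4, the calcium-binding protein gene S100a6 and the asparaginase gene Aspg. The tested group was 7 APPPS1;Apoe-/- mice, set against 6 APPPS1 mice, C57BL/6 and 6 months old in both cases, with 1 library of cortical RNA each. By their genotype labels, mice of both groups carry the APPPS1 transgenes. In the APPPS1-21 line these are mutant human amyloid precursor protein and presenilin under the mouse Thy1 promoter, which is active in neurons. No group labelled as lacking the transgenes was analysed here. The knockout mice lack Apoe in every cell. The labels name no litter, sex or batch.

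Astrocytes surround amyloid plaques with thickened processes, and their filament network, built from GFAP and vimentin with some nestin, grows as they do so. Cytokines of the interleukin 6 family act through a shared receptor and STAT3 to raise Gfap and several genes of acute-phase type, and the oncostatin M receptor encoded by Osmr is one entry point to that pathway. Aquaporin 4 is the water channel of astrocyte endfeet and is expressed in resting astrocytes as well. Vim, Cd44, S100a6, Timp1 and Osmr are also expressed outside astrocytes, in vessel and meningeal cells among others. In RNA from whole cortex, fewer cells of a type and less RNA per cell cannot be told apart.

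Promoter sequence was read for 9 of the 10 genes from RefSeq (GRCm38.p6, the mm10 assembly), 250 bases before to 50 after the annotated start. The window was searched on both strands for TTCNNNGAA, the palindrome bound by STAT factors, TGANTCA for AP-1, TTGCNNAA for C/EBP and, for NF-kB, GGG and TTTCC with any 2 bases between them. Matches were found in 4 of the 9 windows, 1 in each, so none overlapped another. These 4 are shown, from 250 bases before the start through its first 10 bases, with the matched letters in capitals. They are Gfap (chr11:102897191-102897450, minus strand), Vim (chr2:13574061-13574320, plus strand), Serpina3n (chr12:104406458-104406717, plus strand) and Osmr (chr15:6874304-6874563, minus strand).
Gfap: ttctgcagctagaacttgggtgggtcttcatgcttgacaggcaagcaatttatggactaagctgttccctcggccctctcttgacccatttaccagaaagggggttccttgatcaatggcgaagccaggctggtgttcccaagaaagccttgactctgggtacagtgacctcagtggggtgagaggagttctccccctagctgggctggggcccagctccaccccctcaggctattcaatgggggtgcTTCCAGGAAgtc
Vim: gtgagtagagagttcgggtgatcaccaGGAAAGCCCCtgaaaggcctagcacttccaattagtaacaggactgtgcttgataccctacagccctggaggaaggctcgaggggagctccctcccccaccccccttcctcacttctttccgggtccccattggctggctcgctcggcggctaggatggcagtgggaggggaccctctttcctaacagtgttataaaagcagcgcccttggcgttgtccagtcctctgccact
Serpina3n: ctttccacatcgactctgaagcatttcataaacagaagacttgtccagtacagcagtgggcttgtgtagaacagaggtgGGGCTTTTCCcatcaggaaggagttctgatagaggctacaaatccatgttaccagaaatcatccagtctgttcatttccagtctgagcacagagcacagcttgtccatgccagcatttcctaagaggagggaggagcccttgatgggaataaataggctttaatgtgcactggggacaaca
Osmr: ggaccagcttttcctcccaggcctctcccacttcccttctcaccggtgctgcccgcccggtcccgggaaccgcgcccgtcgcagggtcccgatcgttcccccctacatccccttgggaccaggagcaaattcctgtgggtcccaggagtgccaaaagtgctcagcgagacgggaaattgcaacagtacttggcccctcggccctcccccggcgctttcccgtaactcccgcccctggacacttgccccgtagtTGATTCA
The Gfap match is the STAT palindrome, TTCCAGGAA, beginning 2 bases before the annotated start. Vim and Serpina3n have an NF-kB match each, and Osmr has an AP-1 match. The STAT letters occur in 8.30% of all 32851 promoter windows of this length, the AP-1 letters in 7.81%, the C/EBP letters in 10.8% and the NF-kB letters in 1.63%. These are matches of letters in short windows and were not tested for binding.

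Apoe stood at 4.01 to 6.35 RPKM in the APPPS1;Apoe-/- libraries and at 463 to 670 RPKM in the APPPS1 libraries, as the labels have it. RPKM is the number of reads scaled by gene length and by library depth. Sequencing gave 18455493 to 34538031 alignments per APPPS1;Apoe-/- library and 28402328 to 77005806 per APPPS1 library, so weak genes are measured less precisely in the knockouts. APPPS1;Apoe-/- replicates 2 and 5 had App at 106 and 116 RPKM, whereas the other 5 knockout libraries had 182 to 197 RPKM and the APPPS1 libraries 176 to 217 RPKM. Thy1, whose promoter drives the transgenes, was also low in both, at 52.2 and 56.9 RPKM, against 172 to 245 RPKM in the other knockouts. The cause was not tested. The 10 genes are therefore given with these 2 low-App libraries and without them, as 5 against 6. For other genes named here, the call held without them unless stated otherwise. Y-linked transcripts were found in 3 libraries, APPPS1;Apoe-/- replicates 1 and 3 and APPPS1 replicate 2, too few for a comparison of their own.

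Most of the 10 genes were lower in the cortex of mice without Apoe. Gfap stood at 127 ± 53.3 RPKM in APPPS1;Apoe-/- cortex and 271 ± 23.2 RPKM in APPPS1 cortex (SD, n = 7 and n = 6), so the knockouts were at 46.6% of the APPPS1 mean. Timp1 was at 53.1% of the APPPS1 mean, Cd44 at 54.9%, Serpina3n at 55.8%, Osmr at 58.5% and Aspg at 59.3%. Vim was at 61.8%, S100a6 at 74.1%, Aqp4 at 83.1% and Nes at 87.2%. Of the 10 genes 9 averaged at least 0.5 RPKM and were tested, and 9 of these 9 were lower at an adjusted p under 0.05. None of them was higher. Of the 13343 tested genes 4.74% were called lower and 3.48% higher. The log2 changes of the 9 genes, which are differences of log2(RPKM + 0.5), had a median of -0.55, against -0.0077 for the tested genes of the table. Adding 0.5 RPKM makes the log2 changes of genes near 1 RPKM smaller. With 0.1 RPKM added they were -0.80 for Cd44, -0.84 for Timp1, -0.73 for Osmr and -0.72 for Aspg. The median of the 9 was then -0.73. Changes below use 0.5 RPKM unless stated otherwise. The genes were chosen with such results already known, so these counts describe them and do not test the choice. Without the 2 low-App libraries 4 of the 9 were called lower (Gfap, Serpina3n, Cd44 and Aspg), beside 3.31% of 13365 genes lower and 1.77% higher, and the median was -0.44. In the same 4 genes every APPPS1;Apoe-/- value lay under every APPPS1 value, which held for 2.17% of tested genes, and for 2.86% without the low-App libraries.

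**Figure D1:**
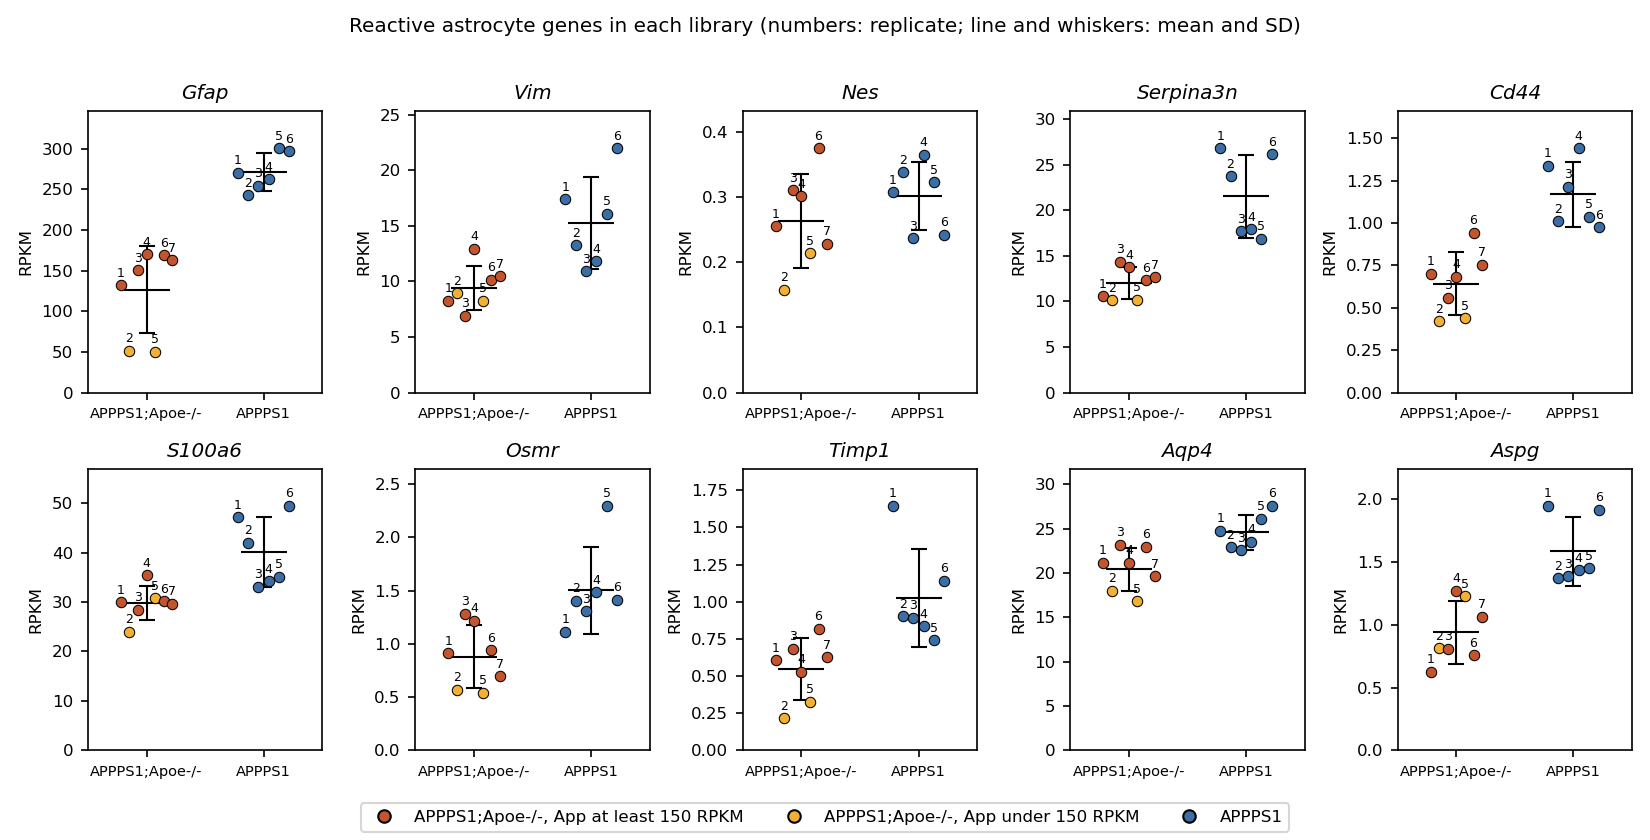
RPKM of the 10 genes in each library (points, numbered by replicate) in the APPPS1;Apoe-/- and APPPS1 groups along the horizontal axis. Lines are means and whiskers SDs, with 7 and 6 libraries, and yellow points are the low-App libraries. In Gfap, Serpina3n, Cd44 and Aspg the 7 APPPS1;Apoe-/- points lie under the 6 APPPS1 points. In Nes 3 of the 7 do so, and the groups otherwise overlap.

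Gfap encodes the filament protein that defines reactive astrocytes and lies on chromosome 11 at positions 102887336 to 102900912 of mm10, minus strand. Its lowest, median and highest values were 50.1, 150.4 and 169.8 RPKM in the APPPS1;Apoe-/- libraries, against 242, 267 and 301 RPKM in the APPPS1 libraries. The groups did not overlap. Replicates 2 and 5 of the knockouts, at 51.7 and 50.1 RPKM, lay far under the 132 to 169.8 RPKM of the other 5. The log2 change was -1.25 ± 0.27 (SE; limma adjusted p = 0.0108). Without the low-App libraries the mean of the knockouts was 157 ± 15.8 RPKM (SD, n = 5), 57.8% of the APPPS1 mean, and the log2 change was -0.79 ± 0.07 (SE; limma adjusted p = 2.33e-05). When the alignments per library, on a log2 scale, entered the fit as a covariate, the change over 13 libraries was -1.07 and missed the threshold (adjusted p = 0.132), and over the 11 with normal App it was -0.85 and passed (adjusted p = 2.12e-04).

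Vim encodes vimentin, the filament partner of GFAP, which vessel and meningeal cells also make (chromosome 2, positions 13573927 to 13582826, plus strand). It had 6.92, 8.91 and 12.9 RPKM as the lowest, median and highest values in APPPS1;Apoe-/- cortex, against 10.9, 14.7 and 22.01 RPKM in APPPS1 cortex. Here 6 of the 7 knockout libraries lay under the lowest APPPS1 library, and replicate 4, at 12.9 RPKM, lay among the APPPS1 libraries. On the log2 scale Vim changed by -0.65 ± 0.15 (SE; limma adjusted p = 0.0157). Unlike Gfap, Vim was not lowest in the low-App libraries, which stood at 8.91 and 8.27 RPKM, and without them its change of -0.61 missed the threshold (adjusted p = 0.0578). In the 10 libraries without Y-linked transcripts it was -0.57 (adjusted p = 0.0869), and with the alignments covariate -0.79 (adjusted p = 0.0565).

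Nes encodes nestin, a filament protein of progenitors and of some reactive astrocytes and vessel cells (chromosome 3, positions 87971078 to 87980451, plus strand). It was the weakest of the 10 genes, averaging 0.281 RPKM over the 13 libraries, and fell under the minimum of 0.5 RPKM for the test across genes. Its lowest, median and highest values were 0.158, 0.256 and 0.376 RPKM in the APPPS1;Apoe-/- libraries, against 0.237, 0.315 and 0.365 RPKM in the APPPS1 libraries. The highest library of all was a knockout, replicate 6. The difference was -0.07 (two-sided exact permutation p = 0.283 over 1716 splits), and -0.01 without the low-App libraries (exact p = 0.792 over 462 splits). When no minimum was set, limma gave Nes an adjusted p of 0.587. No difference in Nes was detectable at this depth.

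Serpina3n encodes a secreted serine protease inhibitor related to human antichymotrypsin, a component of plaques, and is among the most strongly induced astrocyte genes in mouse injury models (chromosome 12, positions 104406729 to 104414329, plus strand). Its lowest, median and highest values were 10.2, 12.3 and 14.4 RPKM in APPPS1;Apoe-/- cortex, against 16.9, 20.8 and 26.8 RPKM in APPPS1 cortex. The groups were fully apart, and the low-App libraries, both at 10.2 RPKM, were close to replicate 1 at 10.6 RPKM. Serpina3n had a log2 change of -0.80 ± 0.12 (SE; limma adjusted p = 9.10e-04), -0.72 without the low-App libraries (adjusted p = 0.00440) and -0.74 with the alignments covariate (adjusted p = 0.0315). Serpina3n was the only one of the 9 genes called in each of these 3 fits. Its gene stands in a cluster of close relatives, so reads may be shared with them. The relatives Serpina3c, Serpina3f, Serpina3g, Serpina3h, Serpina3i, Serpina3k and Serpina3m averaged under 0.5 RPKM. How shared reads were counted is not given, and their part in the Serpina3n values was not tested.

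Timp1 encodes a secreted inhibitor of matrix metalloproteinases (chromosome X, positions 20870166 to 20874735, plus strand). It had 0.217, 0.605 and 0.820 RPKM as the lowest, median and highest values in APPPS1;Apoe-/- libraries, against 0.742, 0.898 and 1.65 RPKM in APPPS1 libraries. The 2 low-App libraries were lowest, at 0.217 and 0.328 RPKM, and APPPS1 replicate 1 was highest. On the log2 scale Timp1 changed by -0.55 ± 0.15 (SE; limma adjusted p = 0.0319), and -0.38 without the low-App libraries, where the call ended (adjusted p = 0.101). It also ended without any 1 of APPPS1;Apoe-/- replicates 2 and 5 and APPPS1 replicates 1, 2 and 6, at adjusted p = 0.0509 to 0.0713. Few reads stand behind these values: at an exonic length of 888 bases they amount to about 5.28 to 21.0 reads per APPPS1;Apoe-/- library and 20.9 to 65.1 per APPPS1 library. Timp1 lies within Syn1, a neuronal gene on the other strand, but 0 of its exonic bases overlap an exon of Syn1. Syn1 stood at 17.2 to 26.4 RPKM in APPPS1;Apoe-/- and 20.6 to 23.4 RPKM in APPPS1 cortex and was not called (log2 change -0.20, limma adjusted p = 0.165). The counting rule is not given in the sources used here, and the share of Syn1 reads in the Timp1 values was not tested.

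Cd44 encodes the hyaluronan receptor that marks reactive astrocytes with long processes and also immune cells (chromosome 2, positions 102811141 to 102901665, minus strand). Its lowest, median and highest values were 0.419, 0.683 and 0.943 RPKM in APPPS1;Apoe-/- cortex, against 0.975, 1.13 and 1.44 RPKM in APPPS1 cortex. The groups did not overlap, though the highest knockout and the lowest APPPS1 library were close. This amounts to a log2 change of -0.56 ± 0.11 (SE; limma adjusted p = 0.00564), and -0.44 without the low-App libraries, again past the threshold (adjusted p = 0.0195). With the alignments covariate it was -0.54 and missed it (adjusted p = 0.0780).

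Osmr encodes the receptor subunit for oncostatin M (chromosome 15, positions 6813577 to 6874969, minus strand). It had 0.543, 0.911 and 1.28 RPKM as the lowest, median and highest values in APPPS1;Apoe-/- cortex, against 1.11, 1.41 and 2.29 RPKM in APPPS1 cortex. The 2 low-App libraries were the lowest, and 2 knockout libraries, replicates 3 and 4, reached above the lowest APPPS1 library. The log2 change was -0.54 ± 0.14 (SE; limma adjusted p = 0.0293), and -0.40 without the low-App libraries, where the call ended (adjusted p = 0.105). It also ended without any 1 of APPPS1;Apoe-/- replicates 2, 5 and 7 and APPPS1 replicates 2, 4, 5 and 6, at adjusted p = 0.0508 to 0.0598.

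Aqp4 encodes aquaporin 4 (chromosome 18, positions 15389496 to 15410982, minus strand) and changed least of the 9 tested genes. Its lowest, median and highest values were 16.8, 21.2 and 23.2 RPKM in APPPS1;Apoe-/- libraries, against 22.6, 24.2 and 27.6 RPKM in APPPS1 libraries. The groups overlapped at 22.6 to 23.2 RPKM, and the low-App libraries were again lowest, at 18.01 and 16.8 RPKM. The log2 change was -0.27 ± 0.08 (SE; limma adjusted p = 0.0408). It was -0.18 without the low-App libraries (adjusted p = 0.122) and -0.24 with the medians of the libraries set equal (adjusted p = 0.0608), and the call ended in both. It was lost, too, without any 1 of APPPS1;Apoe-/- replicates 1, 2, 5 and 7 and APPPS1 replicates 1, 2, 4, 5 and 6, at adjusted p = 0.0519 to 0.0993.

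S100a6 encodes calcyclin, a small calcium-binding protein of astrocytes and many dividing cells (chromosome 3, positions 90612882 to 90624181, plus strand). It had 24.0, 30.0 and 35.4 RPKM as the lowest, median and highest values in APPPS1;Apoe-/- cortex, against 33.1, 38.5 and 49.5 RPKM in APPPS1 cortex. Only replicate 4 of the knockouts reached above the lowest APPPS1 library. On the log2 scale S100a6 changed by -0.42 ± 0.10 (SE; limma adjusted p = 0.0181), and -0.37 without the low-App libraries, which missed the threshold (adjusted p = 0.0559).

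Aspg encodes an asparaginase and belongs to the genes that astrocytes raise in mouse models of inflammation and stroke (chromosome 12, positions 112106679 to 112127559, plus strand). Its lowest, median and highest values were 0.627, 0.814 and 1.27 RPKM in APPPS1;Apoe-/- cortex, against 1.37, 1.44 and 1.95 RPKM in APPPS1 cortex. The groups did not overlap. Aspg did not follow App: the low-App libraries, at 0.814 and 1.23 RPKM, stood in the middle and near the top of the knockouts. The log2 change was -0.54 ± 0.11 (SE; limma adjusted p = 0.00820), and -0.58 ± 0.12 without the low-App libraries (adjusted p = 0.0135). With the alignments covariate it was -0.61 and missed the threshold (adjusted p = 0.0557).

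**Figure D2:**
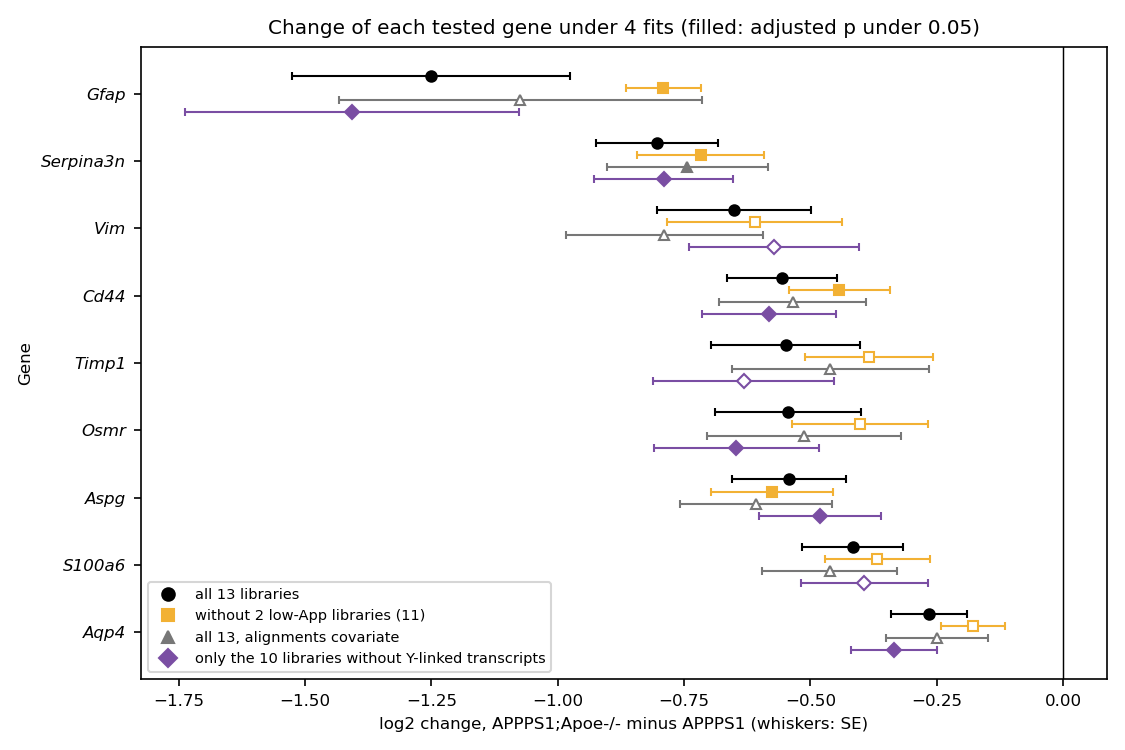
Log2 change, APPPS1;Apoe-/- minus APPPS1, of the 9 tested genes (vertical axis) in 4 fits; points give the estimate, whiskers the SE, and filled points an adjusted p under 0.05. The estimates lie left of 0 in each fit, and Gfap is at -1.25 with all libraries and -0.79 without the low-App libraries.

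In the 4 fits plotted there the 9 tested genes had estimates below 0, and the fits differed in size and in which genes passed. With the alignments covariate over 13 libraries 1 of the 9 genes was called lower, Serpina3n, beside 0.989% of tested genes lower and 0.525% higher. With the same covariate and without the low-App libraries 2 were called, Gfap and Serpina3n, beside 1.49% of tested genes lower and 0.629% higher. The knockout libraries were on the whole the shallower ones, and depth was not tested beyond this covariate. In the 10 libraries without Y-linked transcripts, a comparison of 5 against 5 chosen after seeing the data, 6 of the 9 were called lower, beside 2.21%. Exact permutation of the labels, with no adjustment, gave two-sided p-values of 0.000583 for Serpina3n, the smallest possible over 1716 splits, to 0.00699 for Aqp4. Without the low-App libraries these ran from 0.00216, the smallest possible over 462 splits, for Gfap, Serpina3n, Cd44 and Aspg, to 0.0303 for Aqp4.

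The 10 genes did not move by the same amount. Each of the other 9 was set against Gfap in the same library, and the difference of the log2 values was compared between the groups. Aqp4 changed less than Gfap: its log2 difference from Gfap averaged -2.45 in APPPS1;Apoe-/- and -3.44 in APPPS1 libraries, a shift of 0.98 (two-sided exact permutation p = 0.00175, adjusted p = 0.00787 over the 9 comparisons). The shift was 0.61 without the low-App libraries (adjusted p = 0.00974, exact permutation). S100a6 shifted by 0.83 (adjusted p = 0.0175, exact permutation), and by 0.42 without the low-App libraries (adjusted p = 0.0260). The adjusted p of S100a6 was 0.0568 without APPPS1 replicate 5, where the shift was 0.77, and 0.0530 without APPPS1 replicate 6, where it was 0.87. Nes shifted by 1.18 (adjusted p = 0.00787, exact permutation), and by 0.78 without the low-App libraries (adjusted p = 0.00974). It averaged 0.281 RPKM, less than the 0.5 RPKM added before taking log2, so its own values hardly move. The shift of Nes is thus mostly the change of Gfap, -1.25 and -0.79. With 0.1 RPKM added it was 1.09 over 13 libraries (adjusted p = 0.00787, exact permutation). Serpina3n and Vim, at 0.45 and 0.60, did not differ from Gfap past the threshold (adjusted p = 0.189 and 0.109, exact permutation). Without the low-App libraries their shifts were 0.07 and 0.18. Serpina3n shifted by 0.30 without knockout replicate 2 and by 0.29 without replicate 5, and Vim passed without replicate 3 (0.73, adjusted p = 0.0317, exact permutation). For Cd44, Osmr, Timp1 and Aspg, all near 1 RPKM, the shift depends on the pseudocount, which for weak genes decides how far low values are pulled together. At 0.5 RPKM it was 0.69 to 0.71 for these 4, and Cd44, Osmr and Timp1 passed (adjusted p = 0.0192 for each, exact permutation) while Aspg did not (0.0554). The call of Cd44 ended without APPPS1 replicate 5 (0.64) or 6 (0.63), that of Osmr without APPPS1 replicate 1 (0.65) or 6 (0.67), and that of Timp1 without APPPS1 replicate 5 (0.62) or 6 (0.70). Aspg passed without any 1 of the 7 knockout libraries (adjusted p = 0.0146 to 0.0445, exact permutation). At 0.1 RPKM the shift was 0.46 for Cd44, 0.52 for Osmr and 0.42 for Timp1, none of which passed. At 0.5 RPKM and without the low-App libraries it was 0.35 for Cd44, 0.39 for Osmr and 0.41 for Timp1. These 3 were just under the threshold (adjusted p = 0.0487 for each, exact permutation). Aspg then shifted by 0.21 (adjusted p = 0.0863, exact permutation).

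**Figure D3:**
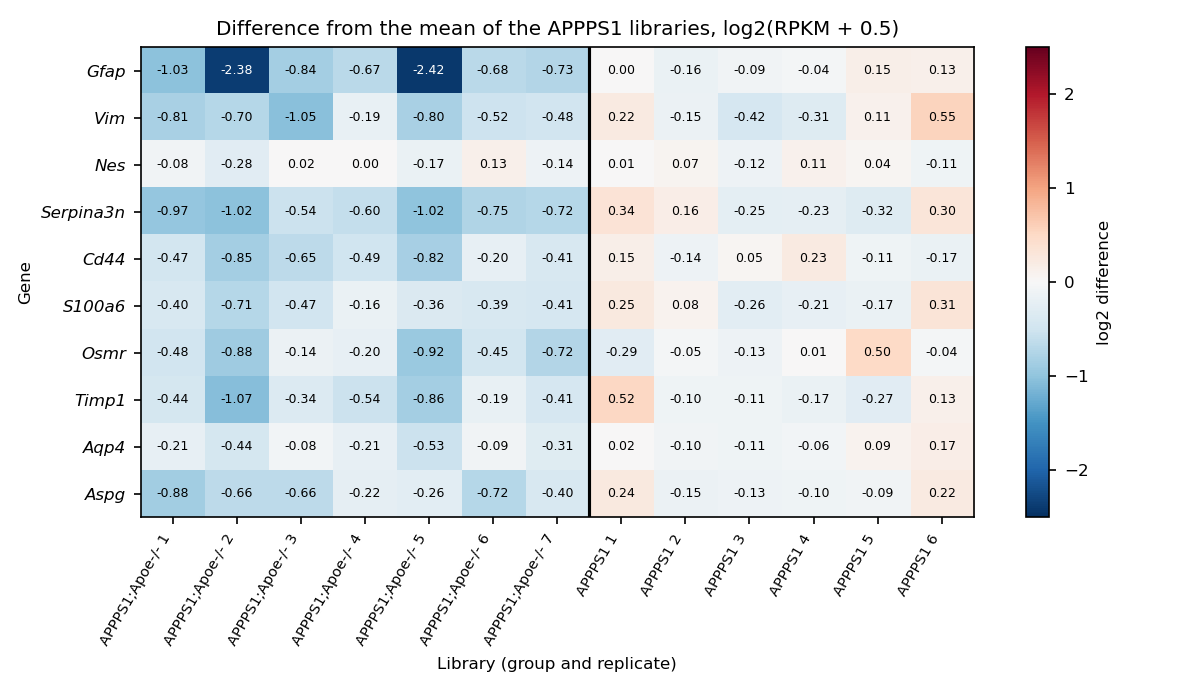
Difference of log2(RPKM + 0.5) from the mean of the 6 APPPS1 libraries, for each gene (rows) and library (columns, APPPS1;Apoe-/- left of the line). Gfap is at -2.38 and -2.42 in knockout replicates 2 and 5 and between -1.03 and -0.67 in the other 5; Vim and Aspg show no such gap.

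The knockout libraries differed among themselves in a way that was shared by part of the genes. Replicate 2 was among the lowest 2 of the 7 knockouts in 8 of the 10 genes and replicate 5 in 7 of the 10. Gfap, Serpina3n, Cd44, Osmr, Timp1, Nes and Aqp4 had both at the bottom, and Vim, S100a6 and Aspg did not. Replicate 4 was the highest knockout in 4 of the 10, namely Gfap, Vim, S100a6 and Aspg. Within the knockouts Gfap varied most, with an SD of 42.1% of the mean, against 8.56% among the APPPS1 libraries. Vim varied by 20.9% and 27.1%, and S100a6 by 11.3% and 17.6%, so for these the APPPS1 libraries were the more variable.

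The genes whose profile over the 13 libraries lay nearest to that of Gfap were genes of microglia and other immune cells. Likeness was measured as the root mean square difference of log2(RPKM + 0.5), each gene being centred on its own mean, over 13334 tested genes outside the 10. The nearest was Trem2, a lipid receptor of microglia, at 0.151, followed by Cd48 at 0.212, Ly86 at 0.214, Tyrobp at 0.227 and Cd68 at 0.241. Trem2 had 15.95 to 17.3 RPKM in the low-App libraries, 36.5 to 44.3 RPKM in the other knockouts and 71.4 to 82.3 RPKM in the APPPS1 libraries. Cd68, a lysosomal glycoprotein of phagocytes, had 15.1 to 19.0, 33.4 to 40.6 and 65.4 to 74.99 RPKM in these 3 sets. Gfap, at 50.1 to 51.7, 132 to 169.8 and 242 to 301 RPKM, had its 3 sets in the same order. The nearest to Gfap of the other 8 tested genes of the set was Serpina3n, at 0.533. That distance is larger than those of the 5, but the 5 were the smallest of 13334 and Serpina3n the smallest of 8. The measure also depends on the size of a change. The log2 changes were -0.99 to -1.39 in the 5 genes and -0.80 in Serpina3n, against -1.25 in Gfap. Within the set the closest pair was S100a6 and Aspg, at 0.180. The libraries share genotype and low App in these profiles, so the distances describe them and test nothing.

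**Figure D4:**
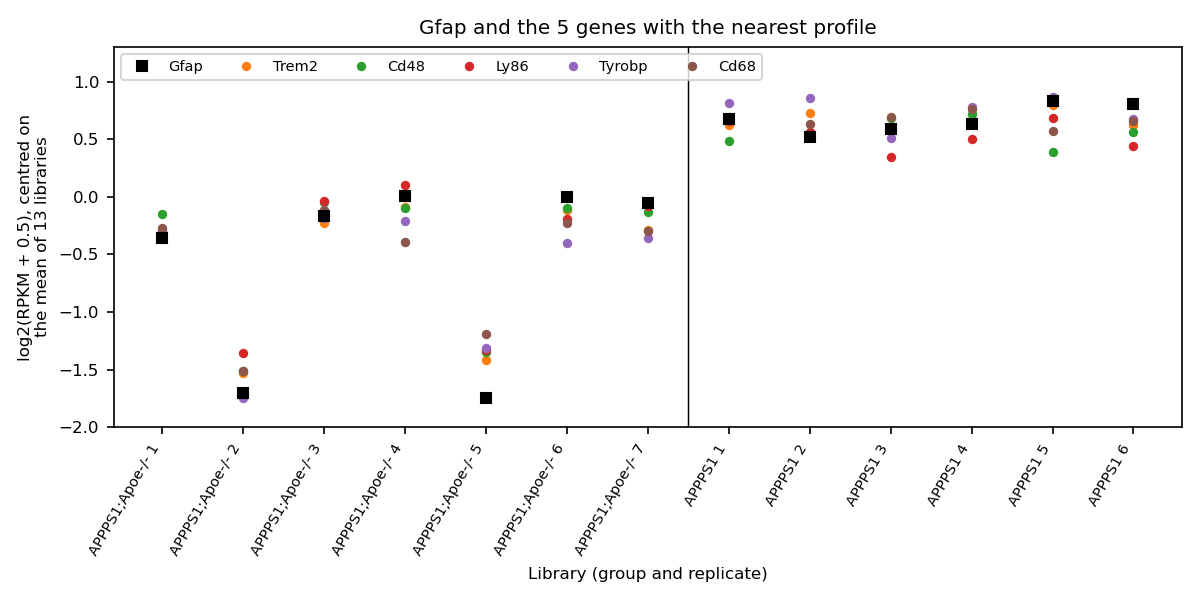
Log2(RPKM + 0.5) of Gfap (black squares) and of the 5 genes with the nearest profile (coloured points), each centred on its mean over 13 libraries, by library, APPPS1;Apoe-/- left of the line. The 6 genes lie lowest in knockout replicates 2 and 5 and highest in the APPPS1 libraries.

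Markers of other cells were read beside these changes. Of 12 microglial markers 8 were lower and 0 higher, beside 4.74% and 3.48% of tested genes. Without the low-App libraries the counts were 7 and 0, beside 3.31% and 1.77%. With the alignments covariate over 13 libraries they were 1 and 0, beside 0.989% and 0.525%. The summed level of the 12 was 225 to 454 RPKM in APPPS1;Apoe-/- cortex, of which 225 to 255 in the low-App libraries, against 627 to 721 RPKM in APPPS1 cortex. Tyrobp and Trem2 changed by -1.39 and -1.25 (limma adjusted p = 0.00125 and 0.00286). With the alignments covariate Tyrobp passed and Trem2 missed the threshold (limma adjusted p = 0.0371 and 0.0607). Of 17 general astrocyte markers 1 was lower and 2 were higher, and their median log2 change was 0.12. With the alignments covariate 0 of the 17 were called in either direction. The lower one was Sox9, a transcription factor gene (log2 change -0.24, limma adjusted p = 0.0342), whose call ended without the low-App libraries (-0.25, adjusted p = 0.0681). The summed level of the 17 was 1998 to 2241.5 RPKM in APPPS1;Apoe-/- cortex against 1825 to 2058 RPKM in APPPS1 cortex. Glutamine synthetase, Glul, was higher in the knockouts, at 180.1 ± 12.7 RPKM, against 149 ± 8.53 RPKM, and so was the connexin gene Gjb6, at 50.2 ± 8.74 against 37.1 ± 4.14 RPKM (SD, n = 7 and n = 6; limma adjusted p = 0.00733 and 0.0203). The Gjb6 call ended without the low-App libraries (log2 change 0.32, adjusted p = 0.0693).

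Vessel cells also express Vim, Timp1, S100a6 and Osmr. Of 9 endothelial markers 0 were lower and Ly6c1 was higher (log2 change 0.46, limma adjusted p = 0.0107), beside 4.74% and 3.48% of tested genes. With the alignments covariate Ly6c1 missed the threshold (limma adjusted p = 0.139). The 9 markers summed to 131 to 147 RPKM in APPPS1;Apoe-/- and 125 to 155 RPKM in APPPS1 cortex. Cldn5, the tight junction gene, was at 6.18 ± 1.28 and 8.65 ± 1.90 RPKM and was not called (adjusted p = 0.0567), but without the low-App libraries it was (log2 change -0.58, adjusted p = 0.0222). Of 10 tested mural and fibroblast markers 0 were called by limma in either direction, and 1 was higher at an unadjusted p under 0.05, Vtn (log2 change 0.20, adjusted p = 0.0948). Their sum was 64.4 to 88.5 RPKM in APPPS1;Apoe-/- cortex, against 56.2 to 77.2 RPKM in APPPS1 cortex. Of 9 ependymal and choroid plexus markers only 3 were strong enough to test and Ccdc153 was higher (0.892 ± 0.269 against 0.398 ± 0.214 RPKM; limma adjusted p = 0.0235, and 0.0693 without the low-App libraries). The part of these cells in the values of the 10 genes was not tested.

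Markers of myelin and of neurons were also read. Of 9 myelin markers 4 were higher, 1 without the low-App libraries and 0 with the alignments covariate. Of all tested genes 3.48%, 1.77% and 0.525% were higher in these 3 fits, and 4.74%, 3.31% and 0.989% lower. The 9 myelin markers summed to 974 to 1544 RPKM in APPPS1;Apoe-/- and 864 to 1207 RPKM in APPPS1 cortex. The low-App libraries were the highest, at 1367 and 1544 RPKM. Mal was at 34.9 ± 5.36 and 24.9 ± 2.85 RPKM and Mog at 47.6 ± 7.38 and 36.7 ± 3.57 RPKM (SD). Striatal markers leaned the same way: of 9, 1 was called higher, Pde10a, and 0 lower, but 8 were higher at an unadjusted p under 0.05 and their median log2 change was 0.45. With the alignments covariate 3 were called higher, and without the low-App libraries 0 were. The summed level was 433 to 919 RPKM in APPPS1;Apoe-/- and 331 to 812 RPKM in APPPS1 cortex, and among the knockouts the low-App libraries were highest, at 714 and 919 RPKM, against 433 to 694 RPKM in the other 5. Of 8 neuronal markers 1, the vesicular glutamate transporter gene Slc17a7, was lower (35.6 ± 6.17 and 47.7 ± 6.65 RPKM), and of 3 tested leukocyte markers Cd4 was higher. Without the low-App libraries Mog, Pde10a, Slc17a7 and Cd4 missed the threshold. No marker of these lists was at 0 in every library. The part of dissection in the result was not tested.

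Relatives and partners of the 10 genes were read in short lists. Of all tested genes 4.74% were called lower and 3.48% higher, and these shares stand beside the counts of this paragraph and the next. With so few genes per list, 1 call does not set a list apart from them. Of 11 tested intermediate filament and linker genes 1 was lower, the heavy neurofilament gene Nefh, at 6.00 ± 0.624 RPKM in APPPS1;Apoe-/- and 7.71 ± 0.482 RPKM in APPPS1 cortex (limma adjusted p = 0.00496). Among tested genes of oncostatin M, gp130 and STAT3 signalling the ciliary neurotrophic factor gene Cntf was lower, at 0.515 ± 0.234 RPKM in APPPS1;Apoe-/- and 0.965 ± 0.223 RPKM in APPPS1 cortex (limma adjusted p = 0.0332). That call ended without the low-App libraries (adjusted p = 0.104). Osm, Il6, Lif and Socs3 averaged under 0.5 RPKM and were not tested.

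Among 14 tested metalloproteinase and other Timp genes Timp2 was lower, at 23.4 ± 1.76 and 29.0 ± 2.45 RPKM, and Timp3 was higher, at 34.3 ± 3.43 and 29.2 ± 1.76 RPKM (limma adjusted p = 0.00703 and 0.0417). Timp3 missed the threshold without the low-App libraries (adjusted p = 0.111). Of 9 tested serpin genes Serpinb8 was higher, at 5.12 ± 0.436 and 3.32 ± 0.534 RPKM, the opposite direction from Serpina3n (limma adjusted p = 8.98e-04). Of 15 tested genes of Cd44 ligands and linkers Msn was lower, which encodes moesin, a linker of Cd44 to actin (10.1 ± 1.76 and 13.1 ± 0.805 RPKM, limma adjusted p = 0.0190; 0.0530 without the low-App libraries). Of 15 tested S100 and annexin partner genes 0 were called by limma, and at an unadjusted p under 0.05 2 were lower and 1 was higher. Of 13 genes of the Aqp4 anchoring complex and other aquaporins Dtnb was lower, which encodes a dystrobrevin (6.74 ± 0.360 and 8.39 ± 0.558 RPKM, limma adjusted p = 0.00358). Of 12 asparagine and aspartate enzymes Asns, which encodes asparagine synthetase and so makes what Aspg degrades, was higher (115.8 ± 8.35 and 88.5 ± 9.50 RPKM, limma adjusted p = 0.00366). The first mean and SD of each pair are those of APPPS1;Apoe-/- cortex (n = 7), the second those of APPPS1 cortex (n = 6). With the alignments covariate over 13 libraries Serpinb8 and Asns were still called (limma adjusted p = 0.0149 and 0.0281). Nefh (limma adjusted p = 0.0597), Cntf (0.296), Timp2 (0.102), Timp3 (0.122), Msn (0.158) and Dtnb (0.0839) were not.

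Of 32 other reactive astrocyte genes that were tested 8 were lower, which is 25.0% of them against 4.74% of tested genes, and 1 was higher, 3.12% against 3.48%. Their median log2 change was -0.079, against -0.0077 for tested genes and -0.55 for the 9 genes. Without the low-App libraries 6 were lower and 1 higher, beside 3.31% and 1.77% of tested genes, and the median of the 32 was -0.12. With the alignments covariate over 13 libraries 1 was lower and 0 were higher, beside 0.989% and 0.525% of tested genes. Cd14, a coreceptor for bacterial lipopolysaccharide that microglia also express, was at 5.98 ± 1.42 RPKM in APPPS1;Apoe-/- and 11.4 ± 0.968 RPKM in APPPS1 cortex (limma adjusted p = 4.47e-04). Ggta1, a galactosyltransferase gene, was at 1.06 ± 0.327 and 1.81 ± 0.141 RPKM (adjusted p = 0.00870). Fkbp5, a glucocorticoid-induced co-chaperone gene, was higher, at 3.63 ± 0.664 and 2.43 ± 0.304 RPKM (adjusted p = 0.00703). With the alignments covariate Cd14 was still called (limma adjusted p = 0.0178), and Ggta1 and Fkbp5 were not (0.159 and 0.117).

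**Figure D5:**
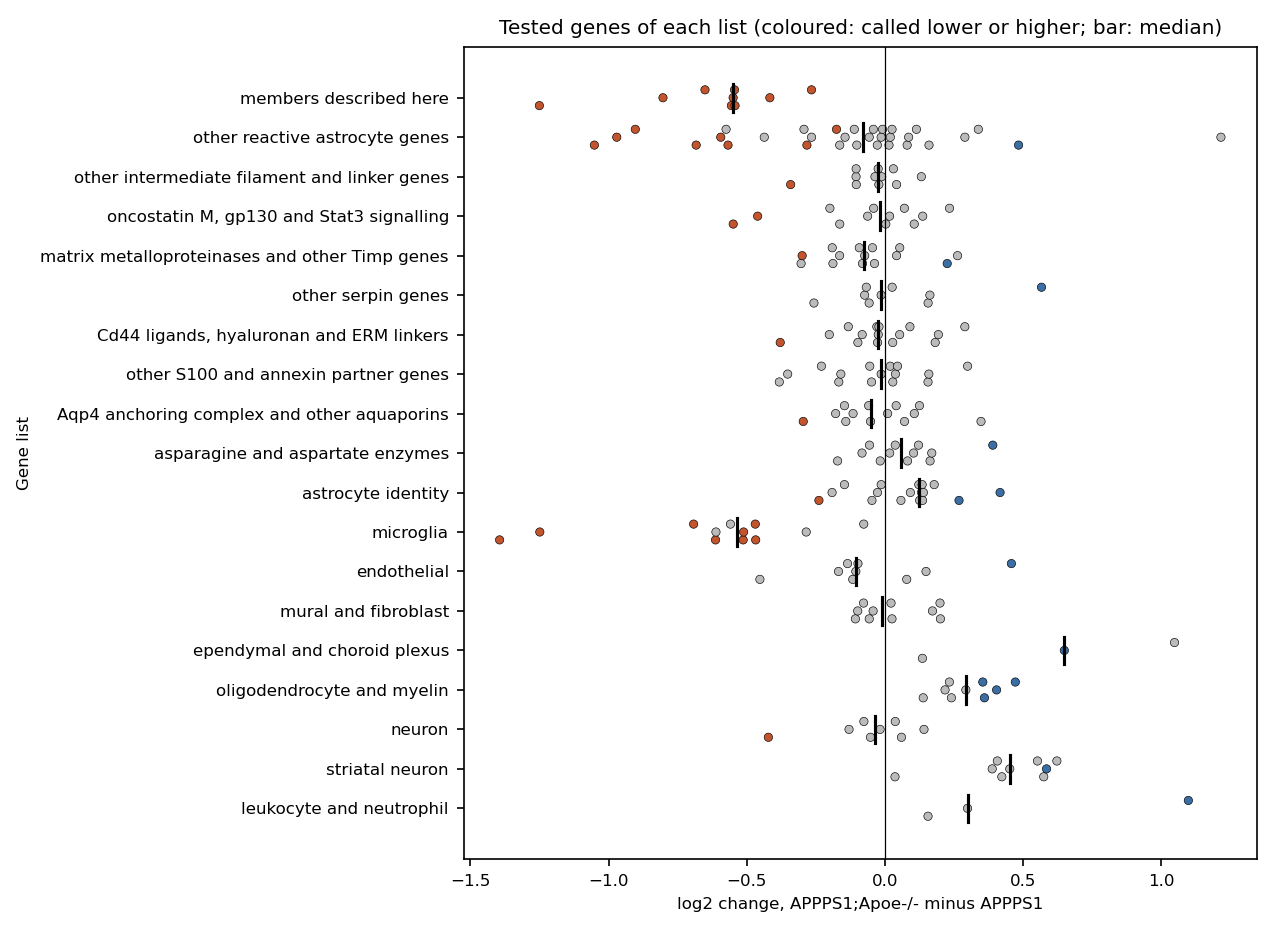
Log2 change, APPPS1;Apoe-/- minus APPPS1, of each tested gene (points) of the 9 genes described here and of 18 lists (vertical axis); coloured points were called lower or higher at an adjusted p under 0.05, grey points were not, and bars are medians. The median of the 9 genes is -0.55 and that of the microglial markers -0.54, while the 17 astrocyte identity genes have a median of 0.12.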

How the data were processed

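RNA from the cortex of 13 mice was sequenced. Labels' protocols name dry ice for freezing, Trizol for extraction and the Clontech SMARTer chemistry. Partek and mm10 stand in the submitters' processing notes. Aligner, annotation, counting rule and use of strand: not given in the sources used here. The authors deposited RPKM per gene in 1 table and, per the file headers, an alignment count for each library. RPKM is scaled by gene length and depth but keeps the sampling error of the reads.

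Values were taken as log2(RPKM + 0.5). A gene was tested where it averaged 0.5 RPKM or more over the libraries, which left 13343. The test was limma 3.58.1 (eBayes with trend, R 4.3.3) with genotype alone in the model, two-sided, Benjamini-Hochberg adjusted over every gene tested and called at an adjusted p under 0.05. Single values were tested by exact permutation of the libraries. The design text counts mice, but no litter or batch is named, so p-values measure the spread between these libraries. The 2 libraries with App under 150 RPKM were left out as an alternative; others were other pseudocounts, filters, scalings, variance models, library weights, depth and sex covariates and single libraries left out. Replicate numbers follow accession order and pair nothing. The code was tested on simulated data.

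The 10 genes and the gene lists were chosen with earlier results of these data known. Named beside them are up to 3 called genes per pathway list, up to 2 genes per marker list with the smallest p, and the 5 genes nearest to Gfap; Sox9 and Syn1 were added after their values were seen. A single result of the pathway lists is not reported here. Positions come from GENCODE M21 on mm10 and promoters from RefSeq. Python 3.11.15, pandas 2.3.3, numpy 2.4.6 and matplotlib 3.10.9 were used.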

Additional observations from a re-analysis of the deposited data

Results flagged for a closer look

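Osmr in APPPS1 replicate 5 stood at 2.29 RPKM, far above the 1.11 to 1.48 RPKM of the other 5 APPPS1 libraries. Without that library the log2 change of Osmr was -0.44 and missed the threshold (limma adjusted p = 0.0598). Its gap to the next library was 0.686 of the range of the 6. It was the only library flagged for such a gap among the 20 groups of the 10 genes. Chance alone gives about 1 flag in 20 groups, so this single flag is no more than chance gives.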

How the results depend on the processing

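Over the alternatives, 250 recomputed changes of the 9 tested genes gave 0 reversals, and 57 lost their call. The difference in Nes, -0.07 with all libraries, was 0.011 in the 8 libraries with neither Y-linked transcripts nor low App (exact permutation p = 0.946). Of the 9 tested genes the number called lower was 4 without the low-App libraries, 1 with the alignments covariate, 2 with both, and 1 in the 8 libraries with neither Y-linked transcripts nor low App, a set chosen after seeing the data (Gfap, log2 change -0.72, limma adjusted p = 4.38e-04). It was 6 to 9 with single libraries left out. Over all genes, 633 lower and 465 higher became 132 and 70 with the alignments covariate, 295 and 183 in the libraries without Y-linked transcripts, and 162 and 60 in those that also had normal App. They became 442 and 236 without the low-App libraries, and 199 and 84 when the covariate was added. Scaling moved the split: 1065 were lower and 278 higher with upper quartiles set equal, 531 and 701 with medians. Genes called higher numbered 271 to 742 with single libraries left out, the extremes being without APPPS1 replicate 6 and without APPPS1;Apoe-/- replicate 4, and 290 without APPPS1 replicate 2.

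Shifts relative to Gfap, with single libraries left out, ranged over 0.42 to 0.73 for Vim, 0.29 to 0.53 for Serpina3n, 0.54 to 0.78 for Cd44, 0.63 to 0.93 for S100a6, 0.57 to 0.82 for Osmr, 0.56 to 0.80 for Timp1 and 0.47 to 0.83 for Aspg. At a pseudocount of 0.1 Cd44 (0.46), Osmr (0.52) and Timp1 (0.42) no longer passed, and at 1 Aspg (0.83) did. The cause of these changes was not tested. No paired analysis was possible because the labels give no shared replicate numbers. Weak genes (Nes, Timp1) rest on few reads per library, and the APPPS1;Apoe-/- libraries were mostly the shallower.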

Other observations

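Among the APPPS1 libraries, replicates 1 and 6 were the highest 2 of the 6 for Vim, Serpina3n, S100a6, Timp1 and Aspg, a pattern noticed after the values were seen. Vim stood at 17.4 and 22.01 RPKM there and at 10.9 to 16.1 RPKM in the other 4, and Aspg at 1.95 and 1.92 RPKM against 1.37 to 1.45 RPKM. Gfap did not share it, being highest in replicates 5 and 6, at 301 and 297 RPKM. Nor did Cd44, whose lowest value, 0.975 RPKM, was that of replicate 6.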
